A study of Homo sapiens with 12 samples.

Results

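A375-BIR is a human melanoma cell line that its labels name as the BRAF-inhibitor-resistant counterpart of A375, an established line with an activating BRAF mutation. Its response to dabrafenib was measured here across genes, in the 3 libraries from A375-BIR cells given the drug at 200 nM for 48 h and the 3 from A375-BIR cells given 0.1% DMSO, the solvent. These are 6 of the 12 samples of the series. They were chosen by their titles, and the labels call the 3 of each group biological replicates. Cells of both groups were grown in RPMI with 10% serum. How the resistance arose, and whether A375-BIR is 1 clone, is not given in the sources used here. The other 6 samples are A375 cells under the same pair of treatments, and 4 of them, 1 with DMSO and 3 with dabrafenib, list human genes and were used to compare the lines.

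Dabrafenib is an inhibitor of the mutant BRAF kinase, which in such melanoma cells drives MEK and ERK signalling. ERK raises transcription of its own feedback inhibitors and of genes that carry cells into division, so that drug-sensitive cells leave the cell cycle. Resistant cells keep dividing in the drug, often because ERK is reactivated by another route.

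The 6 libraries held 391210 to 1100917 gene counts, and levels are given in CPM, counts per 1000000 of a library's counts on the genes tested, with the totals adjusted for composition (TMM). Where a library has no count of a gene, its level may be as high as 2.54 to 7.76 CPM (3 counts, counting error only). The smallest, dabrafenib library 3, stood apart. In it 20.4% of the reads listed fell on genes, against 27.7% to 31.1% in the other 5, and genes of the mitochondrial genome took 7.21% of its gene counts, compared with 4.63% to 5.49%. MALAT1, a nuclear noncoding RNA, took 5.78% of its gene counts, against 2.36% to 3.94%. Of 10 melanocyte markers, 2 (MLANA and TYR) had no count in the 6 libraries and PMEL had 3, while MITF and SOX10 were present, and the 10 summed to 202 to 220 CPM with DMSO and to 233 to 327 CPM with dabrafenib. Markers of endothelial cells summed to at most 3.81 CPM and those of fibroblasts to at most 28.5 CPM in any of the 6. Leukocyte and erythroid markers summed to at most 46.6 CPM, mostly CD68. The 10 epithelial and keratinocyte markers summed to more than the melanocyte markers, 435 to 457 CPM with DMSO and 352 to 466 CPM with dabrafenib. Nearly all of it was KRT18, KRT8, DSP and KRT10, and 5 of the 10, among them EPCAM and KRT5, had no count.

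After 48 h of dabrafenib, 252 of 10236 genes tested differed from DMSO in A375-BIR (2.46%), 139 higher (1.36%) and 113 lower (1.1%). A gene was called where its Benjamini-Hochberg adjusted p from edgeR's quasi-likelihood test over all genes was under 0.05, and log2 changes are given with their standard error. Genes of mitosis made up 40 of the 113 that fell. Among those that rose were complement and cytokine genes, collagens and other matrix proteins, and amino acid transporters and other targets of the stress factor ATF4. At least 2-fold changes were fitted for 82 of the higher and 47 of the lower genes, and the median log2 change of all genes tested was 0.02. Of the 252 genes, 243 are protein coding.

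The number of calls depended on single libraries. It was 106, 140 and 107 without DMSO library 1, 2 or 3, and 215, 558 and 279 without dabrafenib library 1, 2 or 3. Of the 252 genes 73 were called in all 6 of these fits, 40 higher and 33 lower. The dabrafenib libraries also differed more from each other than the DMSO libraries: the common biological coefficient of variation, the spread beyond counting error as a fraction of the level, was 0.212 with dabrafenib and 0.0737 with DMSO. It was 0.251, 0.184 and 0.202 without dabrafenib library 1, 2 or 3, and 0.0617 to 0.0958 among any 2 of the DMSO libraries.

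**Figure D1:**
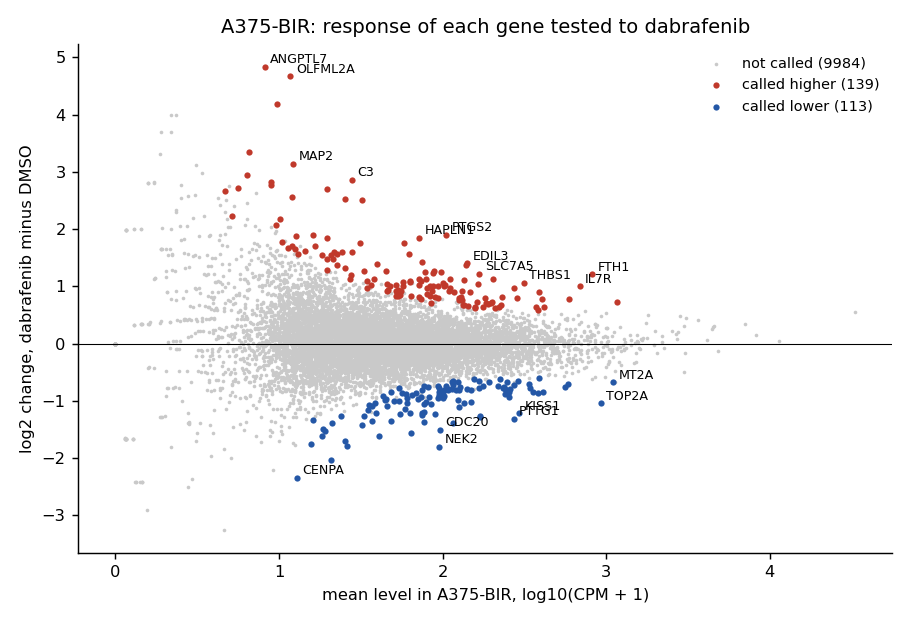
Each point is 1 of the 10236 genes tested, with its mean level over the 6 A375-BIR libraries as log10(CPM + 1) on the x axis and the fitted log2 change (dabrafenib minus DMSO) on the y axis. The 139 genes called higher are red and the 113 called lower are blue; the largest fitted changes, such as those of ANGPTL7 and OLFML2A, lie at low levels.

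Many mitotic genes fell. The 4 lists of kinetochore, mitotic kinase and cyclin, spindle, and chromosome structure genes hold 115 genes, of which 107 were tested. Of these 40 were lower (37.4%, against 1.1% of all genes tested), none was higher and 67 were not called. The fitted change was below 0 for 104 of the 107, with a median of -0.62, against 0.02 over all genes tested. In a bulk culture, fewer cells in mitosis and less of these transcripts per cell cannot be told apart. The number called lower ranged from 23 without DMSO library 3 to 47 without dabrafenib library 2. Of the 40, 18 were also called in each of the 6 fits that leave 1 library out, and for the other 22 the largest edgeR adjusted p in those fits was 0.0511 to 0.312.

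In the list of mitotic kinases, cyclins and genes of the anaphase-promoting complex, 15 of 30 tested members fell, with a list median of -0.80. NEK2, a kinase of centrosome separation (chr1:211658657.0-211675630.0 on the minus strand, GRCh38), stood at 138, 138 and 164 CPM with DMSO and 39.0, 47.2 and 38.8 CPM with dabrafenib. It fell by 1.81 ± 0.21 on the log2 scale (edgeR adjusted p = 8.65e-07), and the 3 drug libraries lay close together, far below the lowest DMSO library. PLK1, the polo kinase that acts at mitotic entry and spindle assembly, stood at 103, 109.9 and 122 CPM with DMSO and 51.4, 36.7 and 33.6 CPM with dabrafenib. It fell by 1.37 ± 0.21 (adjusted p = 7.92e-05), with no overlap between the groups. AURKA, the centrosomal Aurora kinase, had 225, 251 and 237 CPM with DMSO and 109, 91.0 and 90.6 CPM with dabrafenib. AURKA fell by 1.27 ± 0.17 (adjusted p = 1.28e-05), again without overlap. AURKB, the Aurora kinase of the chromosomal passenger complex, fell by 1.20 ± 0.23 (adjusted p = 0.00153). CCNA2, the cyclin of S phase and G2, was at 126, 121 and 124 CPM with DMSO and 47.6, 59.5 and 51.8 CPM with dabrafenib. All 3 of its drug libraries were below the DMSO libraries, whose values almost coincided, and CCNA2 fell by 1.24 ± 0.20 (adjusted p = 0.000132). CDK1, the kinase that the mitotic cyclins activate, fell by 1.10 ± 0.19 (adjusted p = 0.000467). CCNB1, its cyclin partner, fell by 0.91 ± 0.21 (adjusted p = 0.00843), a call that was lost without 1 library (adjusted p = 0.0722 without DMSO library 1). CCNF, CKS2 and CKS1B, a cyclin-like F-box protein and both small CDK-binding subunits, changed by -1.36, -1.79 and -0.81, each called lower, CKS1B with an adjusted p of 0.199 without dabrafenib library 1.

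The same list holds an activator and a substrate of the anaphase-promoting complex, which also fell. CDC20, which activates the complex at the end of metaphase, was at 148, 123 and 156 CPM with DMSO and 52.4, 54.2 and 38.8 CPM with dabrafenib. It fell by 1.51 ± 0.20 (adjusted p = 9.99e-06), and every drug library was below every DMSO library. PTTG1, or securin, which holds separase inactive until anaphase, had 378, 343 and 447 CPM with DMSO and 169, 169.7 and 119 CPM with dabrafenib. It was the most abundant of the 3, and fell by 1.32 ± 0.18 (adjusted p = 1.14e-05). UBE2C, the ubiquitin-conjugating enzyme of the same complex, fell by 0.79 ± 0.19 (adjusted p = 0.0171), but its adjusted p was 0.131 without DMSO library 2. CDCA8, a chromosomal passenger subunit, and PBK, a mitotic kinase, were lower as well (changes -0.95 and -1.09), but their adjusted p was 0.0513 without DMSO library 3 and 0.312 without dabrafenib library 1.

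At the kinetochore, the protein assembly that ties chromosomes to the spindle, 7 of 26 tested members fell, and all 26 fitted changes were below 0. HJURP, the chaperone that loads the centromeric histone CENPA, was at 170.3, 142 and 185 CPM with DMSO and 50.5, 77.0 and 67.3 CPM with dabrafenib. HJURP fell by 1.39 ± 0.20 (adjusted p = 3.04e-05) with the groups well apart. CENPA itself read 12.7, 14.1 and 33.9 CPM with DMSO and 2.86, 5.25 and 2.59 CPM with dabrafenib. It fell by 2.35 ± 0.59 (adjusted p = 0.0202) on few counts, and the adjusted p was 0.132 without dabrafenib library 1. NUF2 and NDC80, subunits of the microtubule-binding NDC80 complex, fell with log2 changes of -1.03 and -0.79. The spindle checkpoint kinases BUB1 and TTK changed by -1.21 and -1.01, and CENPW, of the inner kinetochore, by -1.26, each called lower. Of these 7 genes HJURP, NUF2 and BUB1 were called without each of the 6 libraries.

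Of 33 spindle and cytokinesis genes tested 12 fell, with all 33 fitted changes below 0 and a median of -0.71. TUBB4B, a beta-tubulin, was at 244, 214 and 267 CPM with DMSO and 129, 75.2 and 80.2 CPM with dabrafenib. It fell by 1.28 ± 0.19 (adjusted p = 4.37e-05); tubulin genes resemble each other, and reads with more than 1 alignment were counted on no gene. PRC1, which bundles the microtubules of the central spindle, had 175, 159 and 154 CPM with DMSO and 88.5, 71.7 and 85.4 CPM with dabrafenib. It fell by 0.99 ± 0.18 (adjusted p = 0.000747). TACC3 and DLGAP5, both of which stabilise spindle fibres, fell with changes of -1.35 and -1.24. TPX2, KIF2C, KIF20A, ANLN, NUSAP1, STMN1, CKAP2 and CKAP2L make up the rest of the 12, with changes of -0.73 (STMN1) to -1.22 (KIF2C). Of the 12 genes 4 were called without each library, TUBB4B, PRC1, TACC3 and DLGAP5.

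Of 18 genes of mitotic chromosome structure 6 fell. TOP2A, the topoisomerase that untangles sister chromatids, was the most abundant of them at 1204, 1270.1 and 1276 CPM with DMSO and 619, 570.3 and 626 CPM with dabrafenib. The 3 drug libraries were alike, and TOP2A fell by 1.05 ± 0.16 (adjusted p = 7.92e-05). MKI67, which encodes the Ki-67 antigen of dividing cells, had 669, 747 and 679 CPM with DMSO and 390.3, 341 and 520.2 CPM with dabrafenib. It fell by 0.75 ± 0.18 (adjusted p = 0.0119), but was not called without any 1 of the 3 DMSO libraries (largest adjusted p = 0.0763). NCAPG, a condensin subunit, fell by 0.94, and HMGB2, DEPDC1 and ARL6IP1, the remaining 3, changed by -0.62, -0.88 and -0.74. Of the 6 genes TOP2A alone was called without each library. PIF1, a DNA helicase outside these lists, fell by 1.61 ± 0.26 (adjusted p = 0.000133).

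**Figure D2:**
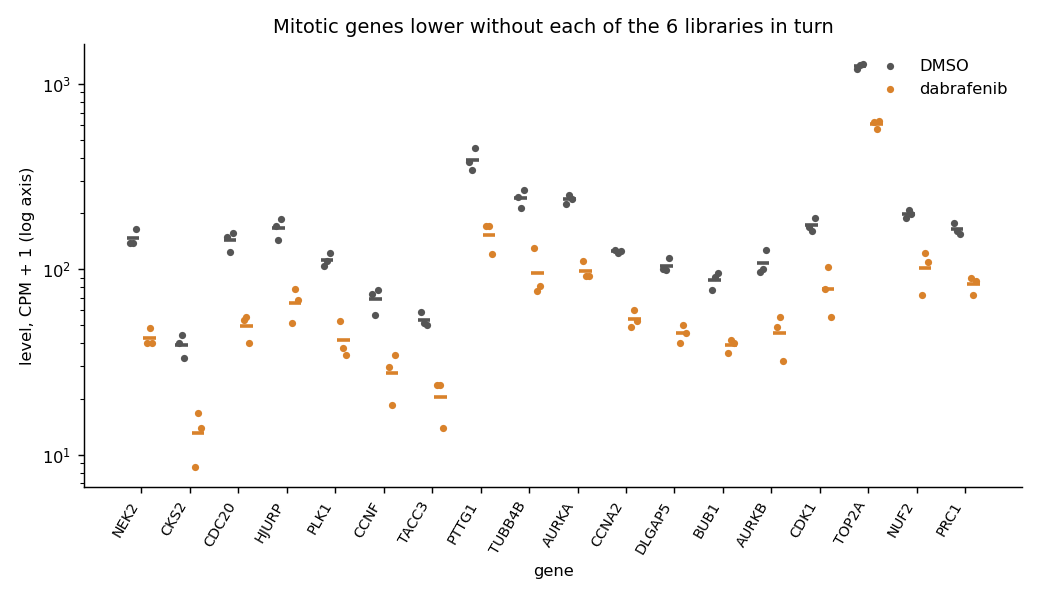
Levels as CPM + 1 on a log axis of the 18 mitotic genes that were called lower in the fits without each of the 6 libraries; points are single libraries, bars are means of 3, grey for DMSO and orange for dabrafenib. In none of the 18 do the groups overlap. Of all 252 called genes only 11 have overlapping groups, so this does not set the 18 apart.

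Promoters of mitotic genes are known to carry CCAAT boxes, bound by NF-Y, and the CHR (cell cycle genes homology region), bound by the DREAM and MuvB complexes that repress in quiescent cells and activate before mitosis. In RefSeq promoters (GRCh38.p14), the 250 bases before the start were searched on both strands for TTTGAA or TTTAAA as the CHR and for CCAAT. Of the 40 fallen mitotic genes 34 had an entry, and 22 of these (64.7%) held CHR letters, against 19.3% of tested genes and 21.9% of all entries. Among the mitotic genes that were not called the share was 49.2% (29 of 59), and among DNA replication genes 17.9% (5 of 28). CCAAT was found in 27 of the 34 (79.4%), against 42.4% of tested genes. A match is a run of letters and not a shown binding site. The 7 promoters below are printed because they belong to genes described above and show how the letters lie relative to each other; capitals mark the CHR and CCAAT letters on either strand, and each runs 5′ to 3′ towards the start of the gene.
NEK2 (chr1:211675622-211675741, minus strand): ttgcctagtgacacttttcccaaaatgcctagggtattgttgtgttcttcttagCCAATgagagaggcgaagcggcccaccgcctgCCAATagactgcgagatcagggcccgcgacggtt
CDC20 (chr1:43358861-43358980, plus strand): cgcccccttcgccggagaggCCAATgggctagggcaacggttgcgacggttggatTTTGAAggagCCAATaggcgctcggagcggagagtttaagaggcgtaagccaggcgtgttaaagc
PTTG1 (chr5:160421735-160421850, plus strand): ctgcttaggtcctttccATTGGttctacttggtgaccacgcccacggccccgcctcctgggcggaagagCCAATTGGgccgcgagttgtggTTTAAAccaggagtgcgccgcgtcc
CKS2 (chr9:89311075-89311194, plus strand): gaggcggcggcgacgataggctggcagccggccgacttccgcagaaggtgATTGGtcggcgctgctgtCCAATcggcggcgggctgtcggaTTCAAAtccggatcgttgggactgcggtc
HJURP (chr2:233854537-233854655, minus strand): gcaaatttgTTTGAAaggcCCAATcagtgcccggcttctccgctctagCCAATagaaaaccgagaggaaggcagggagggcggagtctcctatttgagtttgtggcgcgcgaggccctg
CKS1B (chr1:154974561-154974680, plus strand): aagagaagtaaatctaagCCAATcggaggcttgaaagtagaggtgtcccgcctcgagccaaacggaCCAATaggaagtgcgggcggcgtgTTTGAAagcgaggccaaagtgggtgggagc
CCNF (chr16:2429327-2429423, plus strand): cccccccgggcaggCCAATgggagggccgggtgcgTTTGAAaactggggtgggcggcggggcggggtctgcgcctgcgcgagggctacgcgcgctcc
In CDC20 the CHR letters begin 65 bases before the start and lie between 2 CCAAT boxes. In PTTG1, CKS2 and CKS1B they begin 29, 29 and 30 bases before the start, downstream of the CCAAT boxes, and the last pair of CCAAT matches of PTTG1 overlap by 2 letters on opposite strands. In HJURP and CCNF they lie farther upstream, beginning 111 and 85 bases before the start. The bases shown of NEK2, the gene with the smallest p of the mitotic lists, hold 2 CCAAT boxes and no CHR letters.

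Genes of DNA replication and S phase were looked at beside them. None of 32 tested was called, against 2.46% of all genes tested, so that the count does not set the list apart. The median change was -0.02, with 16 above and 16 below 0. RRM2, the ribonucleotide reductase subunit of dividing cells, was at 83.0, 108 and 124 CPM with DMSO and 61.9, 77.0 and 77.6 CPM with dabrafenib. Its change of -0.55 did not pass the test (adjusted p = 0.17), although every drug library was below every DMSO library. TK1, thymidine kinase, changed by -0.62 (adjusted p = 0.221). CCND1, the G1 cyclin that ERK signalling raises, was at 479, 482 and 462 CPM with DMSO and 431, 497 and 505 CPM with dabrafenib. The groups overlapped and the fitted change was 0.00 ± 0.16 (adjusted p = 0.999). FOXM1, a transcription factor of late cell cycle genes, changed by -0.64 (adjusted p = 0.357). Of 15 CDK inhibitors and RB family genes tested, CDKN2D fell by 1.62 ± 0.40 (adjusted p = 0.0194, and 0.14 without DMSO library 3). This 1 gene is 6.67% of the list, against 1.1% of all genes tested. CDKN1A, which encodes p21, was at 437, 366 and 513 CPM with DMSO and 339.9, 500.3 and 209.6 CPM with dabrafenib. Its groups overlapped and it was not called (adjusted p = 0.559); without dabrafenib library 2 it was called lower (log2 change -0.62, adjusted p = 0.0315). CDKN1B and RB1 were not called (changes -0.67 and 0.12). CDK6, a G1 kinase, changed by 0.57 (adjusted p = 0.102), and was called higher without dabrafenib library 1 (0.73, adjusted p = 0.0299) or 2 (0.63, adjusted p = 0.0266). Of 8 replication-dependent histones tested, H1-2 fell by 0.68 ± 0.19 (adjusted p = 0.0442, and 0.213 without DMSO library 3). That is 12.5% of the list, against 1.1% of all genes tested. H4C3 changed by -0.71 without passing (adjusted p = 0.187), and passed without dabrafenib library 1 (-1.30, adjusted p = 0.000282). Many histone transcripts lack the poly(A) tail that this assay reads.

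Few genes that ERK signalling raises were called. Of 22 tested members of the list of ERK feedback and output genes 3 fell (13.6%, against 1.1% of all genes tested), none rose and 19 were not called, with a median of -0.27, against 0.02 over all genes tested. None of the 3 was called without each of the 6 libraries. ETV4, an ETS factor downstream of ERK, was at 77.1, 62.5 and 76.2 CPM with DMSO and 44.7, 28.0 and 44.0 CPM with dabrafenib. It fell by 0.86 ± 0.23 (adjusted p = 0.0355), with no overlap, but the adjusted p was 0.221 without DMSO library 1. DUSP5, a nuclear ERK phosphatase, fell by 0.86 ± 0.24 (adjusted p = 0.0391; 0.296 without dabrafenib library 1). IER3, an early response gene, fell by 0.70 ± 0.19 (adjusted p = 0.0314; 0.216 without DMSO library 3). DUSP6, the cytoplasmic ERK phosphatase often read as a gauge of pathway output, was at 174, 189.5 and 189.6 CPM with DMSO and 167, 168 and 80.2 CPM with dabrafenib. The change of -0.36 ± 0.19 did not pass (adjusted p = 0.401); in 2 drug libraries DUSP6 lay just under the DMSO values, and in library 3 far under them. SPRY4 and ETV5, a feedback inhibitor and another ETS factor, changed by -0.68 and -0.55 (adjusted p = 0.252 and 0.247). EGR1, an immediate early gene, changed by -0.53 (adjusted p = 0.126), and passed without dabrafenib library 1 (-0.86, adjusted p = 0.00957). None of 17 components of the RAF, MEK and ERK cascade was called, against 2.46% of all genes tested. That count does not set the list apart. BRAF, the target of the drug, was at 63.6, 40.3 and 57.6 CPM with DMSO and 61.9, 59.5 and 51.8 CPM with dabrafenib. Its groups overlapped (change 0.13, adjusted p = 0.872), as did those of NRAS. A mutation cannot be read from these counts.

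Some complement and cytokine genes rose. Of 36 tested members of the complement list and of the cytokine, chemokine and NF-kB list, 10 were higher (27.8%, against 1.36% of all genes tested), none lower and 26 not called. The 2 lists had medians of 0.11 and 0.58. In the fit on the 6 A375-BIR libraries alone the medians were 0.13 over 9 genes and 0.37 over 21 genes. The number called higher was 6 without DMSO library 2 and 10 without dabrafenib library 1 or 3, and without dabrafenib library 2 it was 8 with 2 lower. C3, the central complement component (chr19:6677704.0-6730562.0 on the minus strand), was at 6.78, 7.06 and 5.08 CPM with DMSO and 58.1, 29.7 and 54.3 CPM with dabrafenib. It rose by 2.86 ± 0.37 (adjusted p = 5.17e-06), and the lowest drug library was several-fold above the highest DMSO library. CFB, the factor that builds the alternative pathway convertase with C3, had 27.1, 21.2 and 28.8 CPM with DMSO and 81.9, 63.0 and 122 CPM with dabrafenib. CFB rose by 1.75 ± 0.26 (adjusted p = 4.37e-05). C1R, a protease of the classical pathway, was at 7.63, 2.02 and 5.08 CPM with DMSO and 38.1, 33.2 and 25.9 CPM with dabrafenib. Its rise was 2.70 ± 0.40 (adjusted p = 4.37e-05), without overlap. CFI, the protease that inactivates C3b and so limits the cascade, rose by 2.83 ± 0.64 from 3.39 CPM or less in each DMSO library (adjusted p = 0.00868; 0.0848 without DMSO library 1).

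PTGS2, the inducible cyclooxygenase of prostaglandin synthesis (chr1:186671791.0-186680427.0 on the minus strand), is on neither list and had the smallest p of all genes that rose. It stood at 57.6, 37.3 and 35.5 CPM with DMSO and 179.9, 192 and 122 CPM with dabrafenib. The rise was 1.90 ± 0.22 (adjusted p = 8.65e-07), and the lowest drug library was well above the highest DMSO library. IL7R, the interleukin-7 receptor chain, was at 413, 509 and 450.3 CPM with DMSO and 924, 924 and 895 CPM with dabrafenib. The 3 drug libraries were almost equal and the rise was 1.00 ± 0.16 (adjusted p = 0.000162). IL6ST, the signalling chain shared by receptors of the IL-6 family, rose by 0.91 ± 0.18 (adjusted p = 0.00164). IL6 itself read 4.24, 2.02 and 3.39 CPM with DMSO and 21.9, 24.5 and 10.4 CPM with dabrafenib. This rise of 2.56 ± 0.56 (adjusted p = 0.0067; 0.0649 without DMSO library 2) kept the gene at a low level. TNFAIP2, a TNF-induced gene, rose by 1.11 ± 0.20 (adjusted p = 0.000714). NFKBIA and TNFAIP3, both of which are NF-kB targets that restrain NF-kB, rose by 0.75 ± 0.19 and 0.81 ± 0.22 (adjusted p = 0.0194 and 0.0349), and each lost the call in 4 of the fits that leave 1 library out (largest adjusted p = 0.134 and 0.202). Among 38 interferon response genes tested XAF1 and PARP14 were higher, by 2.94 and 0.62 (5.26%, against 1.36% of all genes tested). The other 36 were not called, and neither call held without each library (largest adjusted p = 0.128 and 0.186). Without dabrafenib library 2, 8 of the 38 were higher, against 301 of 10261 genes tested. Without dabrafenib library 3 the count was 5 of 38, against 150 of 10248 genes tested. None of 16 MHC class I genes and none of 12 MHC class II genes was called, against 2.46% of all genes tested. These counts do not set the lists apart. The class II list had a median of 0.73, with 10 fitted changes above 0 and 2 below. In the fit on the 6 A375-BIR libraries alone 6 of its genes were tested, with a median of 0.49. For the 12 class II genes the medians of log2(CPM + 3) minus the DMSO mean were 0.50, 0.59 and 0.50 in the dabrafenib libraries. In the DMSO libraries they were 0.16, -0.39 and 0.17. The class I list had a median of 0.20, with 13 above 0 and 3 below. HLA-DRB1 was at 23.7, 20.2 and 27.1 CPM with DMSO and 44.7, 29.7 and 28.5 CPM with dabrafenib (change 0.64, adjusted p = 0.223).

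All 6 risers of the cytokine list had a RefSeq promoter entry. The NF-kB letters GGGNNNTTCC, searched on both strands of the 250 bases before the start, were in 3 of the 6, in 5 of 14 members that were not called, in 8.95% of tested genes and in 5.67% of all entries. The 3 promoters that hold them are shown, with the matches in capitals.
IL6 (chr7:22727080-22727159, plus strand): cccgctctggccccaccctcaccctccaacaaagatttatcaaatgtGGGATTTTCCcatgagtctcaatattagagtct
NFKBIA (chr14:35404790-35404869, minus strand): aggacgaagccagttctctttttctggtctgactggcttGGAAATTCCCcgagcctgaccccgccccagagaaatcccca
TNFAIP3 (chr6:137867139-137867216, plus strand): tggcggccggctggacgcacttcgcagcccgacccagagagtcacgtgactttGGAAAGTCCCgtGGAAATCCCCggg
TNFAIP3 has 2 matches, beginning 67 and 55 bases before the start, both on the strand opposite to the letters as spelled. NFKBIA has 1 on that strand and IL6 has 1 on the strand as spelled.

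Some matrix genes rose. Of 85 tested genes in the collagen, glycoprotein and protease lists 18 were higher (21.2%, against 1.36% of all genes tested), none lower and 67 not called, with 24 of the 85 fitted changes below 0. The count of higher genes was 6 without DMSO library 1 and 19 without dabrafenib library 3, and without dabrafenib library 2 it was 18 with 6 lower. Of the 18 genes 5 were called without each of the 6 libraries: COL8A1, LOXL3, THBS1, EFEMP1 and OLFML2A. Fibroblast markers, which include COL1A1, COL3A1, DCN and LUM, summed to 10.2 to 15.1 CPM with DMSO and to 21.9 to 28.5 CPM with dabrafenib; 7 of the 10 had under 10 counts in the 6 libraries together, and their part in the rise of the matrix genes was not tested.

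Of 25 genes of the collagen list 6 rose (24%, against 1.36% of all genes tested), with a median of 0.73. In the fit on the 6 A375-BIR libraries alone 20 of the list were tested, with a median of 0.49, and 5 rose. COL8A1, a short-chain collagen, was at 44.1, 41.3 and 50.8 CPM with DMSO and 107, 89.2 and 93.2 CPM with dabrafenib. COL8A1 rose by 1.12 ± 0.21 (adjusted p = 0.00114). COL4A5, a basement membrane chain, was at 33.9, 34.3 and 30.5 CPM with DMSO and 63.8, 68.2 and 75.0 CPM with dabrafenib. It rose by 1.03 ± 0.23 (adjusted p = 0.00679; 0.0643 without DMSO library 1). LOXL3, an enzyme that crosslinks collagen, rose by 1.00 ± 0.22 (adjusted p = 0.00539). The fibrillar chains COL5A1, COL5A2 and COL27A1 rose by 0.87, 0.84 and 0.91. Each of these 3 lost the call without at least 1 library (largest adjusted p = 0.124, 0.157 and 0.0541).

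Of 32 matrix glycoproteins and proteoglycans 9 rose (28.1%, against 1.36% of all genes tested), with a median of 0.35. THBS1, thrombospondin-1, which binds matrix and activates latent TGF-beta, was at 211, 194 and 201 CPM with DMSO and 419.8, 446 and 399 CPM with dabrafenib. Both groups were tight and the rise was 1.06 ± 0.16 (adjusted p = 6.45e-05). EFEMP1, a fibulin, was at 7.63, 12.1 and 10.2 CPM with DMSO and 68.5, 56.0 and 33.6 CPM with dabrafenib. It rose by 2.50 ± 0.32 (adjusted p = 5.17e-06) from a low level. FN1, fibronectin, was at 261, 226 and 327 CPM with DMSO and 430.3, 674 and 411 CPM with dabrafenib. FN1 rose by 0.91 ± 0.19 (adjusted p = 0.00428; 0.0649 without DMSO library 2), and its highest library was dabrafenib library 2. CCDC80, BGN, TGFBI, LAMA5 and VCAN rose by 0.64 (VCAN) to 1.00 (BGN), and none of these 5 was called without each library. OLFML2A had 2 counts over the 3 DMSO libraries and 47 over the 3 dabrafenib libraries, a ratio of 32.3 (95% counting interval 8.47 to 275). HAPLN1 and EDIL3 are on none of these lists and rose by 1.85 ± 0.22 and 1.40 ± 0.18 (adjusted p = 2.66e-06 and 3.67e-06). HAPLN1 links hyaluronan to proteoglycans and was at 32.2, 30.2 and 28.8 CPM with DMSO and 113, 94.5 and 127 CPM with dabrafenib. EDIL3, an integrin-binding matrix protein, was at 78.8, 71.6 and 81.3 CPM with DMSO and 206, 209.9 and 192 CPM with dabrafenib. In neither gene did the groups overlap. Of 28 proteases and inhibitors MMP2, TIMP3 and SERPINE2 rose by 1.05, 0.83 and 0.64 (10.7%, against 1.36% of all genes tested). None of the 3 was called without DMSO library 1, 2 or 3 (largest adjusted p = 0.125, 0.144 and 0.182). PAPPA, a protease of insulin-like growth factor binding proteins, rose by 1.75 ± 0.31 (adjusted p = 0.000496).

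In the list of TGF-beta ligands, receptors and targets 3 of 27 rose (11.1%, against 1.36% of all genes tested), with a median of 0.33. TGFB2, the ligand, was at 26.3, 17.1 and 22.01 CPM with DMSO and 64.7, 63.0 and 38.8 CPM with dabrafenib. It rose by 1.39 ± 0.27 (adjusted p = 0.00185). ID1 and ID3, inhibitors of basic helix-loop-helix factors that BMP signalling induces, rose by 1.10 ± 0.24 and 1.07 ± 0.24 (adjusted p = 0.0067 and 0.00868), ID3 with an adjusted p of 0.114 without DMSO library 2. For ID1 the libraries read 46.6, 48.4 and 50.8 CPM with DMSO and 143, 96.2 and 49.2 CPM with dabrafenib, so that dabrafenib library 3 lay within the DMSO range, and without dabrafenib library 1 the adjusted p was 0.202. Of 30 adhesion genes CADM1, ITGB8, ITGB4 and L1CAM rose (13.3%, against 1.36% of all genes tested). PCDH9 fell (3.33%, against 1.1%). The list median was 0.09, with 18 fitted changes above 0 and 12 below. CADM1, an immunoglobulin-type adhesion molecule, was at 126, 153 and 99.9 CPM with DMSO and 289, 224 and 329 CPM with dabrafenib. Its rise of 1.12 ± 0.18 (adjusted p = 0.000132) was called without each library, and those of the integrins ITGB8 and ITGB4 (1.90 and 1.88) and of L1CAM (0.72) were not (largest adjusted p = 0.0848, 0.202 and 0.313). PCDH9 fell by 1.34 (adjusted p = 0.0472; 0.24 without DMSO library 1). Of 25 axon guidance genes SEMA3C and EFNA5, secreted and membrane-bound ligands, rose by 1.00 ± 0.20 and 0.92 ± 0.24 (adjusted p = 0.00238 and 0.0233), and 23 were not called. These 2 genes are 8% of the list, against 1.36% of all genes tested. Without DMSO library 1 neither was called (adjusted p = 0.0865 and 0.183).

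**Figure D3:**
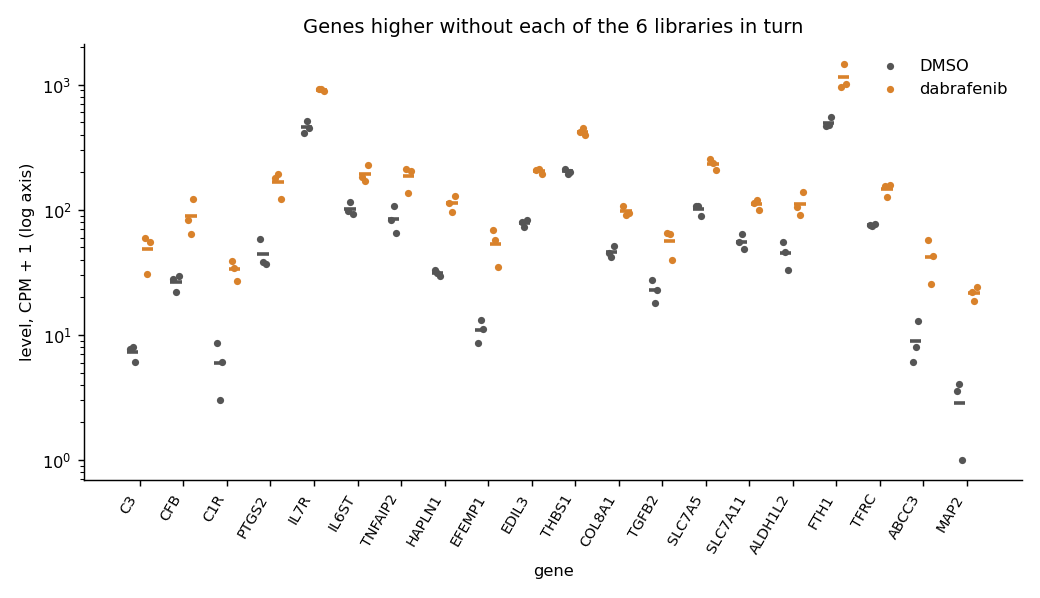
Levels as CPM + 1 on a log axis of 20 genes that were called higher in the fits without each of the 6 libraries; points are single libraries, bars are means of 3, grey for DMSO and orange for dabrafenib. C3, C1R and MAP2 start under 10 CPM with DMSO, and IL7R and FTH1 are the highest of the 20 with dabrafenib.

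Some amino acid transporters and other ATF4 targets rose. ATF4 is a transcription factor made when amino acids run short or other stresses slow translation, and it acts on amino acid uptake and synthesis. Of 31 tested members of the ATF4 list 7 were higher (22.6%, against 1.36% of all genes tested), none lower and 24 not called, with a median of 0.49, against 0.02 over all genes tested. The 7 became 4 without DMSO library 1 or dabrafenib library 1, and 12 without dabrafenib library 2. SLC7A5 and SLC3A2 form the transporter of large neutral amino acids. SLC7A5 (chr16:87830023.0-87869488.0 on the minus strand) was at 107, 106 and 88.0 CPM with DMSO and 255, 238 and 207 CPM with dabrafenib, and SLC3A2 was at 36.4, 37.3 and 47.4 CPM with DMSO and 75.2, 119 and 56.9 CPM with dabrafenib. They rose by 1.22 ± 0.18 (adjusted p = 4.37e-05) and 1.10 ± 0.25 (adjusted p = 0.00868), and SLC3A2 lost the call without 2 libraries (largest adjusted p = 0.0989 without DMSO library 1). SLC7A11, which pairs with SLC3A2 to import cystine for glutathione, was at 54.2, 62.5 and 47.4 CPM with DMSO and 112, 119 and 98.3 CPM with dabrafenib. It rose by 1.00 ± 0.19 (adjusted p = 0.00161). ALDH1L2, a mitochondrial folate enzyme, was at 54.2, 45.4 and 32.2 CPM with DMSO and 105, 89.2 and 137 CPM with dabrafenib. The rise was 1.25 ± 0.22 (adjusted p = 0.00037). SLC7A5, SLC7A11 and ALDH1L2 were the 3 called without each library.

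CHAC1, which degrades glutathione, had 3 counts over the 3 DMSO libraries and 26 over the 3 dabrafenib libraries, a ratio of 11.9 (95% counting interval 3.65 to 61.5). Most of these counts came from dabrafenib library 1, and without it the adjusted p was 0.329. NUPR1, a small stress-induced nuclear protein, rose by 1.71 ± 0.38 (adjusted p = 0.00699; 0.113 without dabrafenib library 1). STC2, a secreted glycoprotein, was at 164, 172 and 222 CPM with DMSO and 310.4, 562 and 204 CPM with dabrafenib. Its rise of 0.97 ± 0.25 (adjusted p = 0.0417) came with overlapping groups, dabrafenib library 3 lying within the DMSO range, and its adjusted p was 0.205 without DMSO library 1. Of 20 aminoacyl-tRNA synthetases AARS1 rose, by 0.67 ± 0.18 (adjusted p = 0.0308, and 0.221 without DMSO library 1). That is 5% of the list, against 1.36% of all genes tested, and 19 were not called. Without dabrafenib library 2, 5 of the 20 synthetases were higher, against 301 of 10261 genes tested. Of 23 genes of the unfolded protein response of the endoplasmic reticulum SEC24D fell (4.35%, against 1.1% of all genes tested), and none rose. The call of SEC24D was lost without DMSO library 1 or 3 or dabrafenib library 1 (largest adjusted p = 0.167). HSPA5, the main chaperone of that compartment, was at 1303, 1134 and 1750.4 CPM with DMSO and 617, 1438 and 567 CPM with dabrafenib. It was not called (change -0.67, adjusted p = 0.223); library 2 lay within the DMSO range and libraries 1 and 3 far below it. Without dabrafenib library 2 its change was -1.23 (adjusted p = 1.54e-06).

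The ATF4-CEBP element, TGATGNAA here, was searched in the same way. Of the 8 risers of the ATF4 and synthetase lists 5 had a promoter entry, and 2 of these held the letters, against 6 of 35 members that were not called, 2.27% of tested genes and 3.14% of all entries. The matches, in capitals, are on the strand opposite to the letters as spelled.
CHAC1 (chr15:40953251-40953280, plus strand): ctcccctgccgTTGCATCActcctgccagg
AARS1 (chr16:70289657-70289716, minus strand): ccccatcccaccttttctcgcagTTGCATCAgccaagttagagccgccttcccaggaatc
The CHAC1 match begins 209 bases before the start and that of AARS1 187 bases before it.

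The NRF2 and glutathione list holds SLC7A11 and both ferritin chains. FTH1, the ferritin heavy chain, which stores iron, was at 463, 474 and 550.2 CPM with DMSO and 951, 1469.5 and 1007 CPM with dabrafenib. It rose by 1.21 ± 0.18 (adjusted p = 5.24e-05); FTH1 has many near-identical pseudogenes, and the reads that fit more than 1 place are counted on no gene. FTL, the light chain, was at 2487, 2281 and 3215 CPM with DMSO and 2681, 3583 and 3633 CPM with dabrafenib, with overlapping groups, and was not called (change 0.31, adjusted p = 0.497). TFRC, the transferrin receptor, which takes iron up, is on no list used here and was picked after its values were seen, was at 74.6, 72.6 and 76.2 CPM with DMSO and 155, 126 and 158 CPM with dabrafenib. TFRC rose by 0.98 ± 0.19 (adjusted p = 0.00149). Of 23 genes of the NRF2 and glutathione list SLC7A11 and FTH1 rose (8.7%, against 1.36% of all genes tested). None fell and 21 were not called, with a median of 0.11.

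Several genes that were low or nearly silent with DMSO were higher with the drug. MAP2, a neuronal microtubule protein, was at 2.54, 3.02 and 0 CPM with DMSO and 20.9, 17.5 and 23.3 CPM with dabrafenib. It rose by 3.14 ± 0.52 (adjusted p = 0.000162). DCT, dopachrome tautomerase of melanin synthesis, had 2 counts over the 3 DMSO libraries and 32 over the 3 dabrafenib libraries, a ratio of 22.01 (95% counting interval 5.62 to 189.6). MITF and SOX10, the lineage factors, were not called (changes 0.19 and 0.36). ANGPTL7, a secreted angiopoietin-like protein, had 1 counts over the 3 DMSO libraries and 30 over the 3 dabrafenib libraries, a ratio of 41.3 (95% counting interval 6.86 to 1684). ABCC3, an export pump of the ABC family, was at 5.08, 7.06 and 11.8 CPM with DMSO and 56.2, 24.5 and 41.4 CPM with dabrafenib. It rose by 2.52 ± 0.38 (adjusted p = 4.69e-05). LRRC7, SPON2, ZNF337-AS1, KCTD15, SORBS2 and VAV2 rose by 1.65 (VAV2) to 2.77 (LRRC7), all from under 7 CPM in each DMSO library, and none of these 6 was called without each of the 6 libraries. ZNF337-AS1 is annotated as antisense, and as the strand setting of the counting is not given in the sources used here, its reads cannot be told from those of an overlapping gene.

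Among genes at higher levels, CPA4, a carboxypeptidase, was at 39.0, 39.3 and 44.0 CPM with DMSO and 132, 82.2 and 104 CPM with dabrafenib, and KRT80, a keratin, was at 35.6, 31.2 and 22.01 CPM with DMSO and 94.2, 66.5 and 119 CPM with dabrafenib. They rose by 1.43 ± 0.22 and 1.57 ± 0.24 (adjusted p = 6.01e-05 and 8.15e-05). ALDH1A3, a retinaldehyde dehydrogenase picked after its values were seen, rose by 0.79 ± 0.16 (adjusted p = 0.00347). Of 18 receptor kinases and ligands FGF2 and IGFBP6 rose by 0.90 and 0.81 (11.1%, against 1.36% of all genes tested). Both calls were lost without at least 1 library (largest adjusted p = 0.183 and 0.0601). EGFR was not called (change 0.12). Nor was AXL (-0.33, adjusted p = 0.357) or NGFR (-0.62). WNT5A, a noncanonical Wnt ligand, rose by 0.91 ± 0.21 (adjusted p = 0.01; 0.0955 without DMSO library 3). ANXA2 rose by 0.64 (largest adjusted p = 0.28).

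Outside the cell cycle, the genes that fell were of many kinds. KISS1, a secreted peptide precursor known as a metastasis suppressor in melanoma, was at 431, 339 and 444 CPM with DMSO and 148, 142 and 248 CPM with dabrafenib. It fell by 1.22 ± 0.19 (adjusted p = 7.94e-05), dabrafenib library 3 being the highest of the drug libraries. VGF, a secreted neuropeptide precursor, was at 201, 187 and 152 CPM with DMSO and 63.8, 135 and 69.9 CPM with dabrafenib. VGF fell by 1.04 ± 0.21 (adjusted p = 0.00234). TFPI2, a secreted protease inhibitor picked after its values were seen, fell by 1.21 ± 0.23 (adjusted p = 0.00103). The long noncoding RNA LINC00973 was at 81.3, 104 and 96.5 CPM with DMSO and 27.6, 42.0 and 25.9 CPM with dabrafenib. It fell by 1.56 ± 0.24 (adjusted p = 7.92e-05), and LINC02475 fell by 2.03 ± 0.39 (adjusted p = 0.00151). SERINC2, SWI5, ACOT7, UCHL3, TMEM60 and MANCR fell with changes of -1.23 (SERINC2) to -1.76 (UCHL3), SERINC2 and SWI5 in all 6 fits without 1 library. BCL2L1, which encodes the survival protein BCL-xL, was the 1 called member of 24 BCL2 family and death receptor genes tested. It is 4.17% of that list, against 1.1% of all genes tested called lower. Its levels were 168, 123 and 176 CPM with DMSO and 106, 70.0 and 80.2 CPM with dabrafenib. BCL2L1 fell by 0.82 ± 0.19 (adjusted p = 0.0132; 0.135 without DMSO library 1). None of 22 cholesterol genes was called, against 2.46% of all genes tested, though their median was -0.50 and 18 of 22 fitted changes were below 0. The smallest adjusted p of the list was 0.0572. EBP, a sterol isomerase, changed by -0.69 (adjusted p = 0.151), and passed without dabrafenib library 2 (-0.87, adjusted p = 0.0391). In that fit 7 of 21 tested members of the list were lower, against 257 of 10261 genes tested. Of 50 nuclear genes of oxidative phosphorylation ATP5F1E fell by 0.60 (2%, against 1.1% of all genes tested). Its call was lost in 4 of the fits without 1 library (largest adjusted p = 0.267). None of 60 cytosolic ribosomal proteins was called, against 2.46% of all genes tested, so that the count does not set the list apart.

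The drug libraries did not move alike in every list. For the mitotic kinase list the library medians, as log2(CPM + 3) minus the mean of the DMSO libraries, were -0.89, -0.75 and -0.83 in dabrafenib libraries 1, 2 and 3. For the ATF4 list they were 0.66, 0.55 and 0.28, and for collagens 0.62, 0.62 and 0.20. The cytokine list read 0.48, 0.80 and -0.20, so that library 3 lay below the DMSO libraries there while libraries 1 and 2 lay above. Cholesterol genes read -0.48, -0.02 and -0.64, ribosomal proteins -0.10, 0.37 and -0.42, and nuclear oxidative phosphorylation genes -0.12, -0.06 and -0.70. Dabrafenib library 3 is also the one with the high MALAT1 and mitochondrial shares given above. Without it 43 mitotic genes were lower, 19 matrix genes and 10 complement and cytokine genes were higher. The number of calls over all genes moved more without dabrafenib library 2 (558) than without library 3 (279). In the fit without library 2, 47 mitotic genes were lower. There 18 matrix genes were higher and 6 lower, and 8 complement and cytokine genes were higher and 2 lower.

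**Figure D4:**
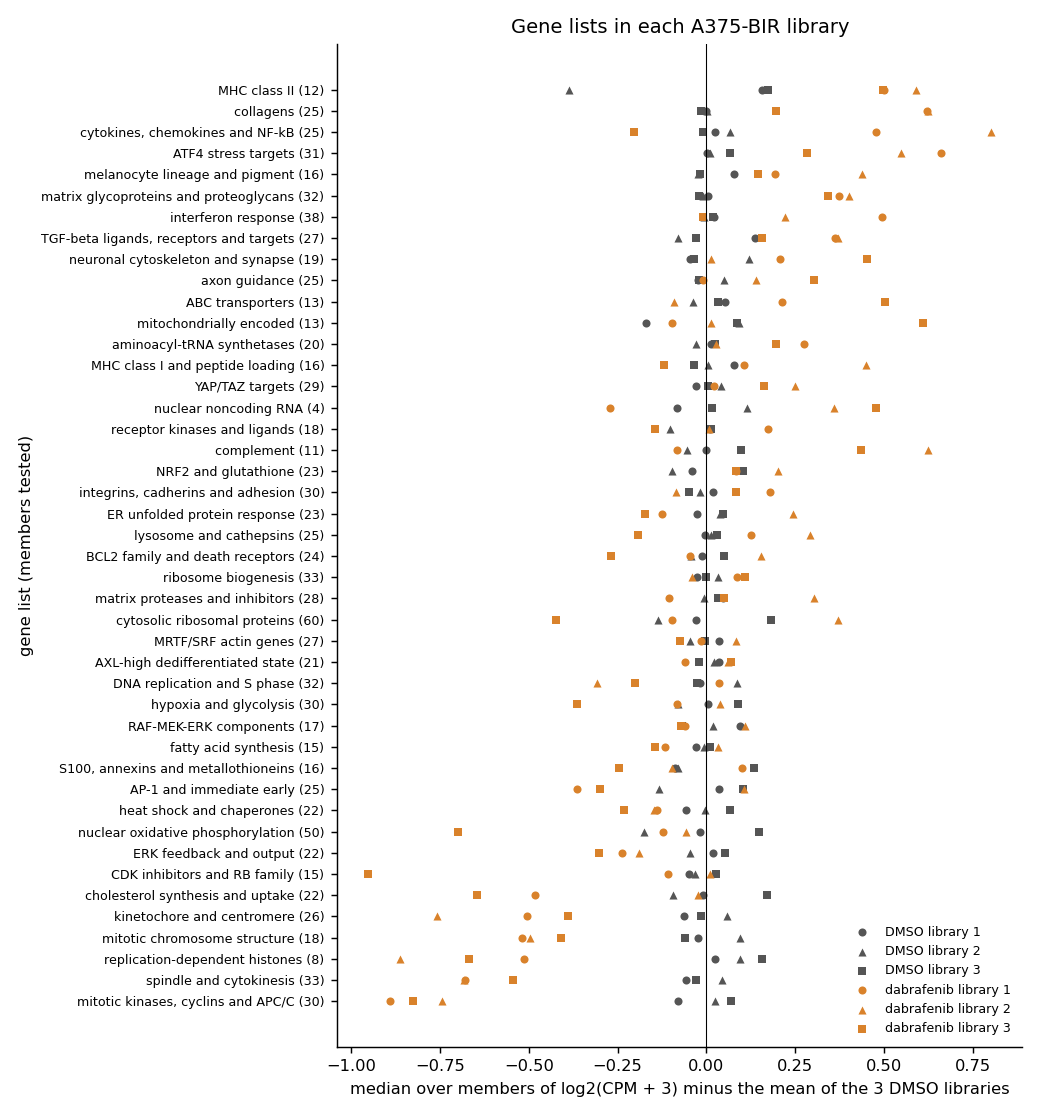
For each of 44 gene lists (members tested in brackets), the median over its members of log2(CPM + 3) minus the mean of the 3 DMSO libraries, with grey points for the DMSO libraries and orange points for the dabrafenib libraries. The 3 drug libraries lie on the same side of 0 for the mitotic lists at the bottom and on both sides for ribosomal proteins and cytokines.

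The same genes were then set beside the response of A375 to the drug. That response rests on 3 dabrafenib libraries and 1 DMSO library, which carries another run stamp, so run and treatment cannot be told apart in it. The difference between the responses was called for 2313 of 10236 genes (22.6%), 1303 higher in A375-BIR (12.7%) and 1010 lower (9.87%). That split moves with the scaling: it was 1139 and 1156 with upper-quartile scaling and 810 and 1549 with total gene counts, which shifts the median difference of all genes from 0.04 to -0.24. Of the 252 genes called in A375-BIR 85 had a called difference, and for 167 no difference was called, which does not show that the lines respond alike.

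Of the 113 genes that fell in A375-BIR, 35 fell less than in A375 by this test, with the same sign in both lines. They include 21 of the 40 mitotic genes; over the 107 mitotic genes tested, the median change was -0.62 in A375-BIR and -1.94 in A375. TOP2A changed by -1.05 in A375-BIR and -3.65 in A375, a difference of 2.60 ± 0.29 (adjusted p = 3.52e-08). For MKI67 the values were -0.75 and -3.16 (difference 2.41 ± 0.35, adjusted p = 6.59e-06), and for CDC20 -1.51 and -3.73 (difference 2.22 ± 0.52, adjusted p = 0.00195). CCNA2 changed by -1.24 and -1.12, with no called difference (adjusted p = 0.916), and NEK2 by -1.81 and -2.73 (adjusted p = 0.264). A lower median in A375 was not particular to mitotic genes. In A375-BIR and A375 the medians were -0.02 and -1.76 for 32 DNA replication and S phase genes. They were 0.00 and -1.38 for 60 cytosolic ribosomal proteins and 0.03 and -0.94 for 33 ribosome biogenesis genes. Some lists went the other way, such as the ATF4 list (0.49 and 1.04). Over the 22 ERK feedback and output genes the medians were -0.27 and -1.66. ETV4 changed by -0.86 and -4.62 (difference 3.76 ± 0.53, adjusted p = 3.61e-06), SPRY4 by -0.68 and -3.87 (difference 3.19 ± 0.48), DUSP6 by -0.36 and -2.35 (difference 1.99 ± 0.39) and CCND1 by 0.00 and -2.64 (difference 2.65 ± 0.32, adjusted p = 2.12e-07).

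Of the 139 genes that rose in A375-BIR, 31 had a fitted change below 0 in A375 and a called difference. No test of the change within A375 alone is reported here, for these or other genes. They include HAPLN1 and C3, for which a fall in A375 is not shown. HAPLN1 was at 2.51 CPM with DMSO in A375 and had no count in its dabrafenib libraries, where 3 counts would be 6.19, 6.70 and 16.9 CPM, and C3 was at 2.51 CPM with DMSO and 1.88 ± 3.26 CPM (SD, n = 3) with dabrafenib. RYR2, a calcium release channel, was at 80.5, 88.7 and 55.9 CPM with DMSO and 202, 122 and 282 CPM with dabrafenib in A375-BIR. The difference was 5.14 ± 1.02 (adjusted p = 0.000474). C1R had a difference of 4.09 ± 0.75 (adjusted p = 0.000147) and EEF1A2, a translation elongation factor, of 3.56 ± 0.39 (adjusted p = 3.52e-08). ALDH1A3 rose by 0.79 and changed by -2.27 in A375 (difference 3.07 ± 0.27, adjusted p = 6.28e-10). Of the 113 genes that fell, 13 had a fitted change above 0 in A375 and a called difference. DLC1, a RhoGAP, fell by 0.80 ± 0.17 (adjusted p = 0.00504; 0.105 without DMSO library 3) and changed by 1.49 in A375 (difference -2.29 ± 0.33, adjusted p = 4.42e-06). GAS2L3, a cytoskeletal linker of dividing cells, was at 103, 114 and 91.4 CPM with DMSO and 43.8, 50.7 and 64.7 CPM with dabrafenib in A375-BIR. GAS2L3 fell by 1.02 ± 0.21 and changed by 1.16 in A375 (difference -2.18 ± 0.41, adjusted p = 0.000184). Another 86 risers had the same sign in both lines without a called difference, among them SLC7A5 (1.22 and 1.44), SLC7A11 (1.00 and 1.51), EDIL3 (1.40 and 1.73) and CADM1 (1.12 and 0.95).

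**Figure D5:**
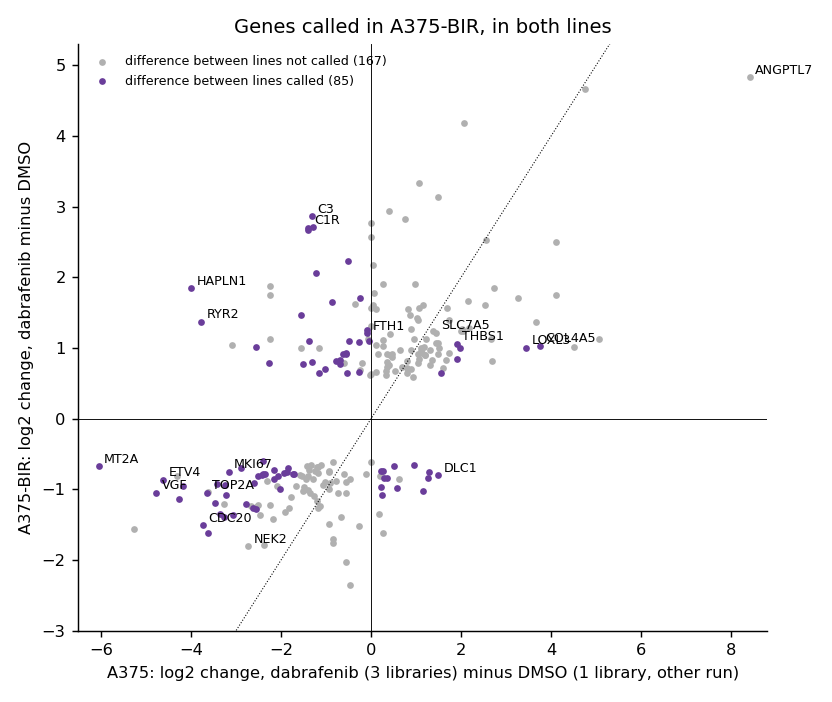
The 252 genes called in A375-BIR, with the fitted log2 change in A375 (3 dabrafenib libraries against 1 DMSO library of another run) on the x axis and that in A375-BIR on the y axis; the dotted line marks equal changes. Purple points are the 85 genes with a called difference, and TOP2A and CDC20 lie on the side of larger falls in A375. HAPLN1, RYR2, C3 and C1R rose in A375-BIR and have fitted values below 0 in A375. For HAPLN1 and C3 these rest on too few counts to show a fall, and for RYR2 and C1R no test within A375 alone is reported.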

How the data were processed

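Total RNA was made into 3′ tag libraries (QuantSeq), per the labels' protocols. The authors deposited 1 table of raw read counts per gene for each library, with no normalization; hg38 is named in the submitters' processing notes; not given in the sources used here are the aligner, the counter, the annotation and the use of strand. The closing lines of each file, for reads placed on no gene, were left out of all totals; of the reads listed in the 6 A375-BIR libraries 40.0% to 49.4% had more than 1 alignment and were counted on no gene. Of the 12 files 2, those of A375 DMSO libraries 2 and 3, list 31053 mouse identifiers although the labels state human, and were used in no comparison.

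Genes were kept by filterByExpr (minimum count 10) over the 10 human libraries, with TMM scaling, and edgeR 4.0.16 (R 4.3.3) was used for a robust glmQLFit with a coefficient for each group and 6 residual degrees of freedom. The 2 contrasts tested were A375-BIR with dabrafenib against DMSO, and the difference between the responses of the lines. A gene was called at an adjusted p under 0.05; its standard error was taken as the log2 change over the root of the F statistic. The fit was also run on simulated counts in which all groups shared 1 spread per gene. The measured spread was larger with dabrafenib (0.212) than with DMSO (0.0737), so that run cannot show how the calls hold under unequal spread. Symbols were found for 24823 of 33694 identifiers, types and positions for 33132 in GENCODE 29; of 1314 list entries 1308 matched. The members and the 45 gene lists were chosen with earlier results of these data known. Genes are named where they are the 25 highest or lowest called changes without overlap whose higher group reaches 10 CPM, the 15 smallest p per side, key genes of the pathway, called list members (or the 2 smallest p of a list with fewer than 2 calls), or the 10 highest or lowest differences between lines among called genes; others are said to be picked later, and a few that the rule names are not reported here. Ratios with under 4 counts in a group carry exact 95% intervals, which cover counting error only. Alternatives were DESeq2 1.42.0, other scalings, filters and subsets, thinning, a replicate block and leaving out each library.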

Additional observations from a re-analysis of the deposited data

Results flagged for a closer look

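The difference between the responses of A375-BIR and A375 passed edgeR's test for the genes below, and the A375 side rests on 1 DMSO library of another run. Among genes called in A375-BIR, the 10 with the highest differences (A375-BIR minus A375, log2) were HAPLN1 (5.85), MT2A (5.37), RYR2 (5.14), C3 (4.18), C1R (4.09), PTPRZ1 (4.07), COLGALT2 (4.01), ETV4 (3.76), VGF (3.72) and EEF1A2 (3.56). The value of HAPLN1 has no count behind it in the dabrafenib libraries of A375 and ranged from 4.07 to 5.85 over the scalings and DESeq2, so neither its size nor its rank is firm. MT2A, a metallothionein that resembles other members of its family, was at 1245, 1271 and 1556 CPM with DMSO and 853, 1011 and 675 CPM with dabrafenib in A375-BIR and at 1641 and 27.5 ± 10.4 CPM (SD, n = 3) in A375 with DMSO and with dabrafenib. It fell by 0.67 ± 0.18 in A375-BIR, a call lost in 5 of the 6 fits without 1 library (largest adjusted p = 0.228), and its fitted change in A375 was -6.05. PTPRZ1 and COLGALT2 had 3 counts each over the DMSO libraries of A375-BIR and 16 each with dabrafenib, ratios of 7.34 (95% counting interval 2.10 to 39.3).

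The 10 lowest differences were COL4A5 (-2.72), LOXL3 (-2.44), DLC1 (-2.29), GAS2L3 (-2.18), SEC24D (-2.11), TSC22D2 (-2.05), RAB6A (-1.62), ZNF766 (-1.56), GPSM2 (-1.31) and RANBP6 (-1.20). COL4A5 and LOXL3 rose in both lines, by less in A375-BIR, and the other 8 fell in A375-BIR with fitted changes above 0 in A375. SEC24D, a coat subunit of vesicles that leave the endoplasmic reticulum, was at 134, 92.7 and 134 CPM with DMSO and 60.9, 66.5 and 77.6 CPM with dabrafenib in A375-BIR and its fitted change in A375 was 1.27. Under the other scalings and DESeq2 none of these 20 differences changed sign; the call was lost in at least 1 of them for C3 (largest adjusted p = 0.0599), COL4A5 (0.0869), GPSM2 (0.128) and RANBP6 (0.144).

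Of the key genes, the difference was called for SPRY4 (3.19), ETV5 (3.08), CCND1 (2.65), TOP2A (2.60), MKI67 (2.41), DUSP6 (1.99), MITF (0.90), BRAF (-1.20), RB1 (-1.36), NRAS (-1.94) and NGFR (-3.05). For SPRY4, ETV5, CCND1, DUSP6, MITF, BRAF, RB1, NRAS and NGFR the change within A375-BIR was not called.

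The files of A375 DMSO libraries 2 and 3 hold counts on mouse gene identifiers, 224221 and 652439 in all, although their labels state human cells. They carry the run stamp of the first A375 DMSO library and were used in no comparison. No group of A375-BIR has more than 3 libraries, so single libraries were not tested as outliers.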

How the results depend on the processing

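The 252 calls in A375-BIR (139 higher, 113 lower) became 106 (59 and 47) with DESeq2, which gave no adjusted p for 3572 genes, 144 (78 and 66) under a mean count minimum of 50, 125 (69 and 56) with the 6 A375-BIR libraries alone and 96 (55 and 41) with every A375-BIR library thinned to 391210 counts. They were 254 with upper-quartile scaling, 244 with total gene counts and 303 with any count admitted. Leaving out 1 library gave 106 to 558 calls (54 to 301 higher, 44 to 257 lower), and of the 252 genes 105 to 235 remained called. The 2313 called differences between lines became 1153 (689 and 464) with DESeq2, 1092 (606 and 486) under a mean count minimum of 50, 1087 (670 and 417) with thinning, 2359 (810 higher and 1549 lower) with total gene counts, and 1644 to 3030 without 1 library (952 to 1650 higher, 692 to 1380 lower).

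Libraries of the 2 groups share replicate numbers. The correlations of deviations between same-numbered libraries were 0.07, -0.05 and -0.12, and those between differently numbered ones were -0.11 to 0.14. Values from 3 libraries per group cannot show whether same-numbered libraries were handled together. With the replicate block 251 genes were called (132 higher, 119 lower), 234 of them among the 252, and 2216 differences between lines (1240 and 976).

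Of 171 named genes 147 were called in A375-BIR. Between 88 (mean count minimum of 50) and 147 of these had a result in each of the 18 alternatives, and none changed sign there. Of the other 24, 6 passed under at least 1 alternative.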

Other observations

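Proteasome genes were looked at after their values were seen. Of 46 tested genes whose symbols start with PSM followed by a subunit letter and number, 4 fell (PSMD2, PSMB6, PSMD8 and PSMC1; 8.7%, against 1.1% of all genes tested), none rose and 42 were not called, with a median of -0.13, against 0.02 over all genes tested. PSMD2, a subunit of the regulatory particle, was at 275, 276 and 344 CPM with DMSO and 228, 117 and 160.4 CPM with dabrafenib. It fell by 0.78 ± 0.18 (edgeR adjusted p = 0.0125; 0.128 without DMSO library 3). PSMB6, a catalytic subunit, fell by 0.73 ± 0.20, and PSMD8 and PSMC1, of the regulatory particle, changed by -0.68 and -0.67, both called lower. None of the 4 was called without DMSO library 3.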
